A study of Rattus norvegicus with 6 samples.

Results

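The 10 genes described here encode angiogenic and growth factors that mesenchymal stromal cells are known to secrete: Vegfa, Vegfb, Vegfc, Pgf, Hgf, Fgf2, Fgf7, Angpt1, Angptl4 and Pdgfa. They were taken by gene symbol from a table of 21857 gene rows, and all 10 were found and passed the low-count filter, among 12298 genes tested. RNA sequencing was used to profile adipose-derived mesenchymal stem cells of Sprague Dawley rats. In the BCAA group (3 libraries) the cells had 3.432 mM branched chain amino acids (leucine, isoleucine and valine) for 12 h, and in the vehicle group (3 libraries) they had vehicle for the same time. Both groups also carried 100 µM hydrogen peroxide, an oxidant, and grew in high-glucose DMEM made without BCAA and supplemented with fetal bovine serum. No group without hydrogen peroxide was analysed here, and the labels do not say whether the replicates were separate cultures or animals, so p-values measure the library-to-library spread alone, part of which may be technical. The study's title concerns stem cells implanted into injured heart, and the comparison asks whether BCAA alter the transcripts of factors by which such cells may act on vessels and tissue.

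The vascular endothelial growth factors act on endothelial cells through receptor tyrosine kinases: Vegfa through Kdr and Flt1, Vegfb and Pgf through Flt1, and Vegfc, the lymphatic factor, through Flt4. Hgf signals through Met, the fibroblast growth factors through the Fgfr receptors, Pdgfa through Pdgfra, and Angpt1 steadies vessels through the endothelial receptor Tek. Angptl4 inhibits lipoprotein lipase and is induced by fatty acids through PPAR receptors. Vegfa and Angptl4 are textbook targets of the hypoxia-inducible factors.

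Promoter sequence is shown for Vegfa, Vegfc and Pgf, which with Vegfb are the VEGF genes among the 10. Their log2 fold changes below were all positive, but none passed the threshold. The further VEGF ligand Vegfd, outside the 10, had a negative one (-0.16). The RefSeq table of assembly GRCr8 gave a promoter for 9 of the 10 genes. Each line is the 250 bases before the start used in that table, 5′ to 3′ on the gene's strand, with capitals marking the motifs found. The motifs searched on both strands were the GC box GGGCGG, the hypoxia response core in the form ACGTG, the AP-1 site TGANTCA and the TEAD site GGAATG. The form GCGTG of the hypoxia core was not searched, nor were bases outside the windows. No match of one motif lay over a match of another. The windows shown are chr9:22452604-22452853 on the plus strand for Vegfa, chr16:44560888-44561137 on the minus strand for Vegfc and chr6:110557748-110557997 on the minus strand for Pgf. In 6 of the 9 genes the window lies before the whole annotated gene, whereas in Vegfb, Fgf7 and Angptl4 the start used lies inside the gene's full span, so the letters of these 3 are not shown.
Vegfa: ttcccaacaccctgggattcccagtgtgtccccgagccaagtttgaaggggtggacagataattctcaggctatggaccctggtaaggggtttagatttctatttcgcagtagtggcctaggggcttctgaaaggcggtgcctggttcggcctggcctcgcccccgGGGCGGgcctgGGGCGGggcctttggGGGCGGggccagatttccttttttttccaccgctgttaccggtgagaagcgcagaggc
Vegfc: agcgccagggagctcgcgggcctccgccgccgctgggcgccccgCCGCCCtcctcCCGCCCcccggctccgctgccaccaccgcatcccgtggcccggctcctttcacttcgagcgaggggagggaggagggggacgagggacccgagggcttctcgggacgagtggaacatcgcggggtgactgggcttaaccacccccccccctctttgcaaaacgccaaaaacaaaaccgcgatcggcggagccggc
Pgf: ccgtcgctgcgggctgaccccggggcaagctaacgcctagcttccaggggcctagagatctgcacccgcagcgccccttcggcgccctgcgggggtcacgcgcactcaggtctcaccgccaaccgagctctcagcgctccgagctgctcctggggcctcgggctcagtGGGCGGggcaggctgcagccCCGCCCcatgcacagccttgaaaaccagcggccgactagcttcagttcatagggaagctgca

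The GC box was present in 6 of the 9 windows (Vegfa, Vegfb, Vegfc, Pgf, Angptl4 and Pdgfa) and in 30.5% of 33469 promoters of all genes. Vegfa held 3 matches, the nearest of them beginning 58 bases before the start, and Vegfb held 4. The hypoxia core in the form ACGTG was present in Angptl4 and Fgf2, against 16.6% of all promoters. The windows without it may hold the form that was not searched. The TEAD site was present in Fgf7 (12.1% of all promoters) and the AP-1 site in none of the 9 (6.34% of all promoters). The GC content of the VEGF windows was 60.4% in Vegfa, 73.2% in Vegfb, 72.4% in Vegfc and 69.2% in Pgf, against a median of 51.2% over all promoters. These counts include the windows of Vegfb, Fgf7 and Angptl4, whose start lies inside the gene's full span. A match is a description of the letters and not a measured binding site.

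Library totals were 12802663 to 15654060 counts with BCAA and 12725344 to 15739731 with vehicle. Vehicle replicate 1 stood apart from the other 5 libraries on the principal component that held 29.1% of the variance, with a score of 26.8 against -15.2 to 0.54. Mitochondrially encoded genes took 6.58% of its counts, against 5.60% to 6.24% in the BCAA libraries and 4.91% and 4.92% in the other vehicle libraries, so results are also given without it where it matters. Of 10 stromal markers, 9 were in the table and all 9 had counts, summing to 14467 to 15003 CPM (counts scaled to a common library size, with TMM factors) with BCAA and 14133 to 15801 CPM with vehicle. Among 10 endothelial markers, 9 were in the table and summed to 12.3 to 12.8 CPM with BCAA and 10.7 to 11.6 CPM with vehicle. Tie1, Tek and Esam, the 3 that passed the low-count filter, made up most of each sum. Their log2 fold changes were 0.34, -0.22 and 0.54 (edgeR's adjusted p = 0.54, 0.78 and 0.41). Every BCAA library lay above every vehicle library for Esam, and the groups overlapped for Tie1 and Tek. Cldn5 was at 0 throughout, and Cdh5 and Emcn were at no more than 0.19 CPM. The 6 adipocyte markers summed to 4.38 to 5.33 CPM with BCAA and 3.84 to 5.59 CPM with vehicle. Macrophage and leukocyte markers (7 of 8 in the table) summed to 776 to 833 CPM with BCAA and 838 to 1003 CPM with vehicle, most of it Lyz2.

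None of the 10 factors passed an adjusted p of 0.05 (edgeR's quasi-likelihood test, Benjamini-Hochberg over all 12298 genes). Of all genes, 0.228% passed (28 genes), 0.0569% higher and 0.171% lower with BCAA. By sign, 6 factors were higher and 4 lower with BCAA, with a median log2 fold change of 0.030, against 0.0035 over all genes tested. An unadjusted p under 0.05 was reached by 2 of the 10, Vegfa upward and Angpt1 downward, against 11.8% of all genes, 5.95% upward and 5.84% downward. Groups were fully separated for 4 of the 10, against 18.1% of all genes: Vegfa and Pdgfa had BCAA above (9.29% of all genes) and Fgf7 and Angpt1 had BCAA below (8.76% of all genes). With DESeq2, which called 1.75% of the 8217 genes it gave an adjusted p, none of the 10 was called either. An unadjusted p under 0.05 was reached by 3 of the 10 with DESeq2, against 1122 of the 16570 genes with counts. DESeq2 gave Fgf2 no adjusted p, so Fgf2 could not be called.

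**Figure D1:**
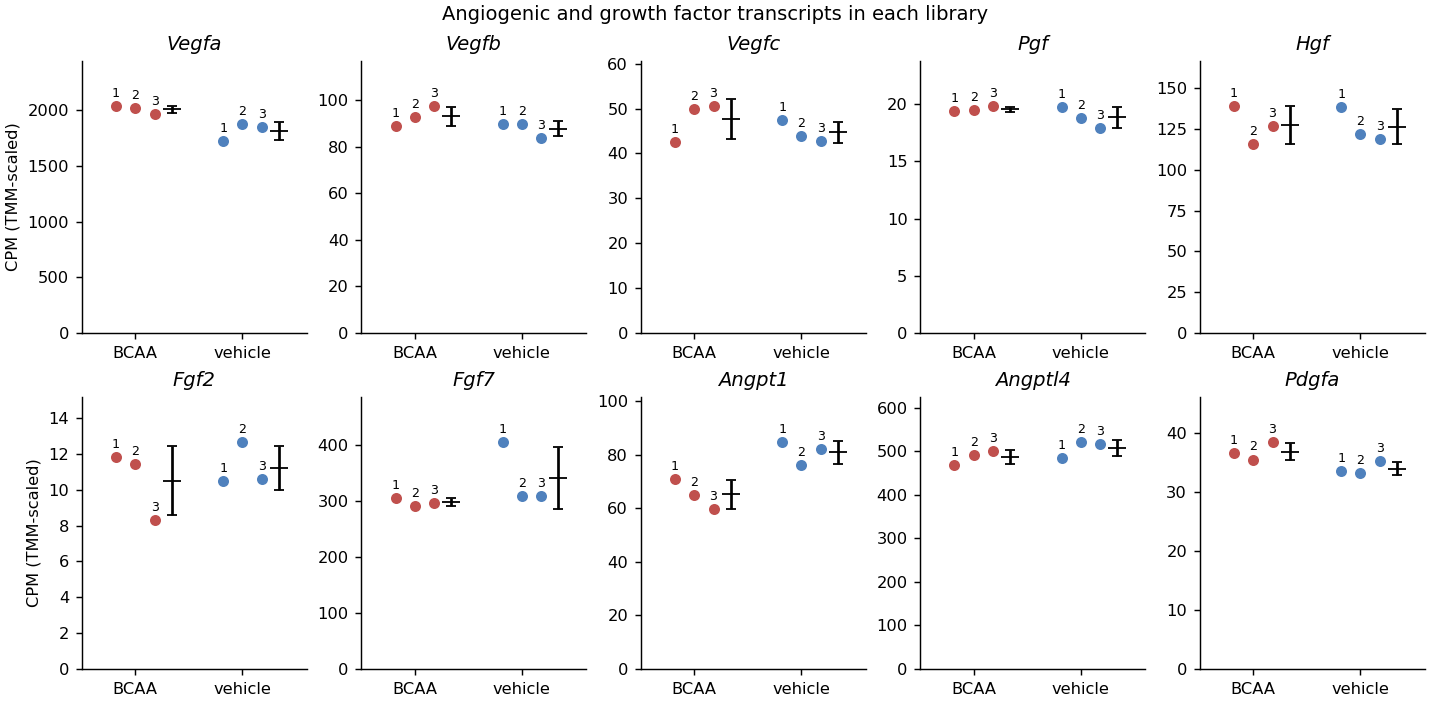
Level of each of the 10 factors in every library, in TMM-scaled CPM on axes that start at 0. Points are libraries numbered by replicate, with BCAA left of vehicle, and the black marks are the mean and SD of 3 libraries. Angpt1 lay at 59.8 to 70.7 CPM in the BCAA libraries and at 76.2 to 84.5 CPM in the vehicle libraries, and the Fgf7 mean with vehicle was raised by replicate 1 at 405 CPM.

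Angpt1, the ligand that activates Tek and stabilises vessels, had the smallest p of the 10 and the largest fold change. It was at 70.7, 64.7 and 59.8 CPM in BCAA replicates 1 to 3, against 84.5, 76.2 and 81.9 CPM in vehicle replicates 1 to 3. Every BCAA library lay below every vehicle library, and the highest BCAA library was replicate 1. The means were 65.1 ± 5.47 CPM in BCAA libraries and 80.9 ± 4.23 CPM in vehicle libraries (SD, n = 3 each). This was a log2 fold change of -0.31 (SE 0.08, 95% interval -0.49 to -0.14), a 1.24-fold lower level, with an unadjusted p of 0.0018 and edgeR's adjusted p of 0.14. Of the 10 factors only Angpt1 passed under any of the 11 alternatives, and it did so under 1: without vehicle replicate 1 the log2 fold change was -0.28 and edgeR's adjusted p was 0.039, in a fit that called 3.93% of all genes. Over the 11 alternatives its adjusted p ran from 0.039 to 0.41.

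Angpt1 is also made by pericytes and smooth muscle cells. The 10 markers of those cells, all in the table, summed to 879 to 896 CPM with BCAA and 1184 to 1237 CPM with vehicle. Most of each sum was Tagln, at 507 to 534 CPM with BCAA and 758 to 820 CPM with vehicle. Of 9 tested, 6 had every BCAA library below every vehicle library, against 8.76% of all genes. Pdgfrb, Cspg4 and Notch3 overlapped, with log2 fold changes of -0.030, -0.072 and 0.087. Among the 9 tested, edgeR called 2 lower, Acta2 and Tagln, against 0.171% of all genes lower, and the other 7 missed the threshold. DESeq2 called 4 of the 10 lower, and the fit without the low-count filter called 3 lower. In either direction those fits called 1.75% and 0.748% of all genes with an adjusted p. Rgs5 was at no more than 0.14 CPM in any library. The part of these cells in the Angpt1 values was not tested. In bulk RNA a smaller number of cells of a type and less RNA per cell cannot be told apart. The antagonist Angpt2 had at most 1 count in any library, and its relative Angpt4 averaged 17.4 ± 1.44 CPM in BCAA libraries and 18.9 ± 2.19 CPM in vehicle libraries (SD, n = 3 each). The receptor Tek averaged 3.42 ± 0.750 CPM in BCAA libraries and 3.91 ± 0.982 CPM in vehicle libraries (SD, n = 3 each).

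Vegfa, the main endothelial growth factor, took 0.197% to 0.208% of all counts in the BCAA libraries and 0.166% to 0.188% in the vehicle libraries, so its counting error was small, at 0.604% of the mean count. It was at 2035, 2021 and 1970.3 CPM in BCAA replicates 1 to 3, against 1724, 1874 and 1850.2 CPM in vehicle replicates 1 to 3. All BCAA libraries lay above all vehicle libraries, and vehicle replicate 1 was the lowest. The means were 2009 ± 34.2 CPM in BCAA libraries and 1816 ± 80.5 CPM in vehicle libraries (SD, n = 3 each). The fitted log2 fold change was 0.15 (SE 0.06, 95% interval 0.014 to 0.28), a 1.11-fold higher level, with an unadjusted p of 0.032 and edgeR's adjusted p of 0.37. Without vehicle replicate 1 it was 0.11 (edgeR's adjusted p = 0.25).

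The other VEGF genes overlapped between the groups. Vegfb was at 89.0, 92.6 and 97.3 CPM in BCAA replicates 1 to 3, against 89.5, 89.6 and 83.9 CPM in vehicle replicates 1 to 3, with a log2 fold change of 0.084 (SE 0.07). Vegfc was at 42.6, 49.9 and 50.5 CPM in BCAA replicates 1 to 3, against 47.4, 43.8 and 42.9 CPM in vehicle replicates 1 to 3, with a log2 fold change of 0.092 (SE 0.09). Pgf, the placental growth factor, was at 19.4, 19.5 and 19.8 CPM in BCAA replicates 1 to 3, against 19.8, 18.8 and 17.9 CPM in vehicle replicates 1 to 3, with a log2 fold change of 0.052 (SE 0.10). The adjusted p-values of these 3 genes from edgeR were 0.68 for Vegfb, 0.74 for Vegfc and 0.88 for Pgf. The lowest Vegfc library was BCAA replicate 1, and vehicle replicate 3 was the lowest for Vegfb and Pgf. The 95% intervals of the fold ran from 0.95 to 1.18 for Vegfb, 0.93 to 1.22 for Vegfc and 0.89 to 1.21 for Pgf, without adjustment for the number of genes.

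Ratios of counts within a library do not depend on how libraries are scaled. There were 22.9, 21.8 and 20.3 Vegfa counts per Vegfb count in BCAA replicates 1 to 3, against 19.3, 20.9 and 22.1 in vehicle replicates 1 to 3, and the groups overlapped. Vegfa counts per Pgf count were 105, 104 and 99.5 in BCAA replicates 1 to 3, against 87.2, 99.8 and 103 in vehicle replicates 1 to 3, and per Vegfc count they averaged 42.4 ± 4.70 with BCAA and 40.8 ± 3.82 with vehicle (SD, n = 3 each). These ratios too overlapped between the groups. They are ratios of read counts, not of transcripts, since transcript length was not used. A further VEGF ligand outside the 10, Vegfd, averaged 25.1 ± 2.05 CPM in BCAA libraries and 28.1 ± 5.12 CPM in vehicle libraries (SD, n = 3 each; edgeR's adjusted p = 0.66).

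**Figure D2:**
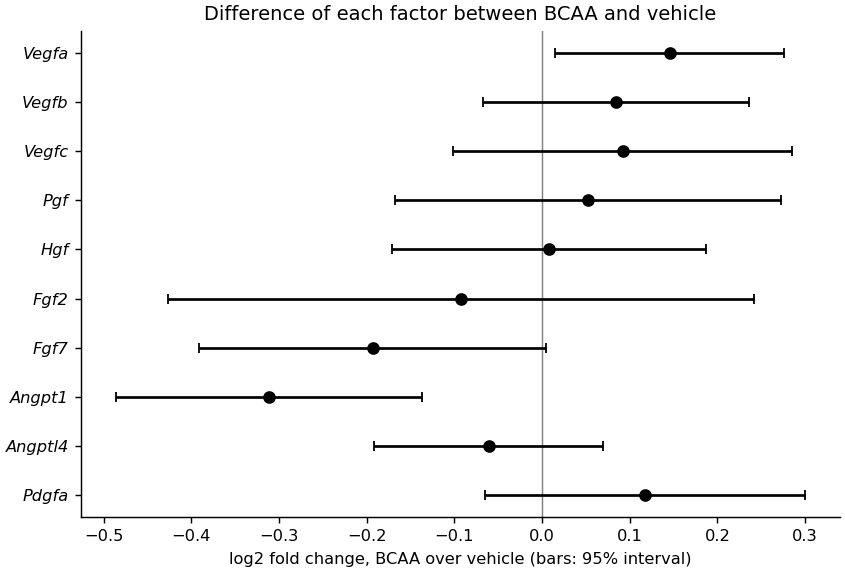
Log2 fold change of BCAA over vehicle for each of the 10 factors, with its 95% interval from edgeR's quasi-likelihood fit on 3 libraries per group. The intervals of Vegfa and Angpt1 lie on one side of 0 before adjustment, and the other 8 cross 0.

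Hgf, the hepatocyte growth factor, was at 139, 116 and 127 CPM in BCAA replicates 1 to 3, against 139, 122 and 119 CPM in vehicle replicates 1 to 3. Replicate 1 was the highest library in each group, and the groups covered the same range. Its log2 fold change was 0.0074 (SE 0.08, edgeR's adjusted p = 0.98), with a 95% interval of the fold from 0.89 to 1.14, and its sign turned in 3 of 11 alternatives. Its receptor Met had 2.19 ± 0.745 CPM in BCAA libraries and 2.65 ± 1.16 CPM in vehicle libraries (SD, n = 3 each).

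Fgf2, a heparin-binding mitogen of endothelial cells and fibroblasts, was the least counted of the 10. It was at 11.8, 11.4 and 8.30 CPM in BCAA replicates 1 to 3, against 10.5, 12.6 and 10.6 CPM in vehicle replicates 1 to 3. BCAA replicate 3 was the lowest library and the groups overlapped. Its fitted log2 fold change was -0.092 (SE 0.16, edgeR's adjusted p = 0.86), and the 95% interval of the fold, 0.74 to 1.18, was the widest of the 10. Its counting error was 7.99% of the mean count, against a spread between libraries of 18.3% with BCAA and 10.9% with vehicle.

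Fgf7, the keratinocyte growth factor that acts on epithelia, was at 306, 291 and 298 CPM in BCAA replicates 1 to 3, against 405, 309 and 309 CPM in vehicle replicates 1 to 3. The groups did not overlap, but 2 vehicle libraries lay just above the highest BCAA library and vehicle replicate 1 lay far above both. The log2 fold change was -0.19 (SE 0.09, edgeR's adjusted p = 0.43) with all libraries and -0.050 without vehicle replicate 1 (edgeR's adjusted p = 0.68). In the same library the matrix proteoglycan Dcn was at 5270.1 CPM, against 4103 and 4141 CPM in vehicle replicates 2 and 3, and the collagen gene Col1a1 was at 5451 CPM, against 8481 and 8433 CPM. The part of these differences in the Fgf7 value was not tested. A related epithelial ligand, Fgf10, averaged 196 ± 3.34 CPM in BCAA libraries and 202 ± 25.4 CPM in vehicle libraries (SD, n = 3 each).

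Pdgfa, a mitogen of stromal cells, was at 36.6, 35.5 and 38.4 CPM in BCAA replicates 1 to 3, against 33.5, 33.2 and 35.3 CPM in vehicle replicates 1 to 3. The groups did not overlap, with the lowest BCAA library close above the highest vehicle library. The log2 fold change was 0.12 (SE 0.09, edgeR's adjusted p = 0.63). Its receptor Pdgfra averaged 275 ± 13.0 CPM in BCAA libraries and 269 ± 10.1 CPM in vehicle libraries (SD, n = 3 each).

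Angptl4 was at 468, 492 and 500.1 CPM in BCAA replicates 1 to 3, against 486, 520.4 and 517 CPM in vehicle replicates 1 to 3. The groups overlapped through vehicle replicate 1, the lowest of its group. The log2 fold change was -0.061 (SE 0.06, edgeR's adjusted p = 0.75), with a 95% interval of the fold from 0.88 to 1.05, the narrowest of the 10. Its target enzyme Lpl averaged 382 ± 13.0 CPM in BCAA libraries and 382 ± 52.6 CPM in vehicle libraries (SD, n = 3 each).

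**Figure D3:**
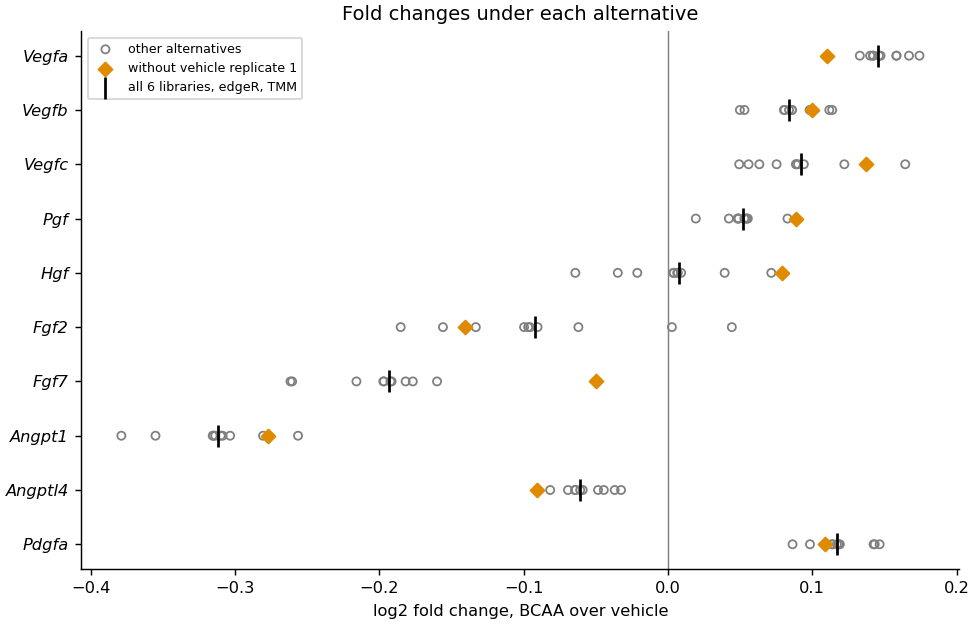
Log2 fold change of each factor under the fit with all 6 libraries (black bars), without vehicle replicate 1 (diamonds) and under the other 10 alternatives (circles). The Fgf7 value without vehicle replicate 1 lies at -0.050, apart from the rest, and Hgf and Fgf2 have values on both sides of 0.

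The genes whose pattern over the 6 libraries lay nearest to the leading factor in each direction were found from the root mean square difference of centred log2 CPM. Nearest to Vegfa were Rpia, an enzyme of the pentose phosphate pathway (0.012), Eaf1, a transcription elongation cofactor (0.016), and Flcn, the folliculin gene (0.017). Nearest to Angpt1 were the adhesion receptor gene Adgra3 (0.038), the exonuclease gene Trex1 (0.045) and the actin-binding protein gene Lima1 (0.045). None of these 6 passed the threshold, with edgeR's adjusted p from 0.10 to 0.49. With 6 libraries many genes can share a pattern, so likeness here is a description only.

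Receptors and co-receptors of these ligands gave no call with edgeR (14 tested of 16 listed) or DESeq2 (16 fitted, Fgfr2 among those without an adjusted p). With edgeR 5 were higher and 9 lower by sign, with a median log2 fold change of -0.077. An unadjusted p under 0.05 was reached by 1 of them, downward, against 5.84% of all genes downward. Fgfr1 averaged 197 ± 7.01 CPM in BCAA libraries and 220.4 ± 20.4 CPM in vehicle libraries (SD, n = 3 each; edgeR's adjusted p = 0.41), and without vehicle replicate 1 it was called lower (adjusted p = 0.016). The neuropilin gene Nrp1, a co-receptor of VEGF, had a log2 fold change of -0.12 (SE 0.07) and Fgfr2 of 0.27 (SE 0.16). Flt1 averaged 37.6 ± 1.40 CPM in BCAA libraries and 39.5 ± 2.19 CPM in vehicle libraries (SD, n = 3 each), while Kdr had 2 to 6 counts per library with BCAA and 3 to 7 with vehicle and was not tested. Other ligands of the same families gave no call with edgeR (14 tested of 21 listed) or DESeq2 (18 fitted, Fgf9 among those without an adjusted p). With edgeR 7 were higher and 7 lower (median -0.017), and 2 had an unadjusted p under 0.05, both downward, against 5.84% of all genes downward. Fgf9 averaged 3.00 ± 1.55 CPM in BCAA libraries and 4.93 ± 0.572 CPM in vehicle libraries (SD, n = 3 each; log2 fold change -0.74, SE 0.29, edgeR's adjusted p = 0.34). Angptl8, a partner of other angiopoietin-like proteins in lipase control, had a log2 fold change of 0.17 (SE 0.10).

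Genes that bind, cleave or release these ligands in the matrix were tested for 28 of 33 listed. With edgeR none was called and 6 had an unadjusted p under 0.05, all downward, against 5.84% of all genes downward. This list was chosen with earlier results of these data known, so its shares are a description only. DESeq2 called Thbs1 and Gpc4 lower (adjusted p = 0.0012 and 0.042). Thbs1 was also called without the low-count filter, where 0.748% of all genes were. By sign 7 were higher and 21 lower (median -0.079). Thbs1, the angiogenesis inhibitor thrombospondin 1, averaged 2399 ± 144 CPM in BCAA libraries and 3075 ± 264 CPM in vehicle libraries (SD, n = 3 each; log2 fold change -0.36, SE 0.07, edgeR's adjusted p = 0.062). The glypican gene Gpc4 had a log2 fold change of -0.34 (SE 0.08, adjusted p = 0.11) and the proprotein convertase gene Pcsk6 one of -0.54 (SE 0.15, adjusted p = 0.16). For all 3 the BCAA libraries lay below the vehicle libraries, and without vehicle replicate 1 these and 1 further gene were called lower, in the fit that called 3.93% of all genes.

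Of 23 hypoxia-inducible factor regulators and targets, Ndrg1, a stress and hypoxia gene, rose and 22 did not pass with edgeR. DESeq2, which called 1.75% of the 8217 genes it gave an adjusted p, called Vldlr (adjusted p = 0.0062) and Hif1a (adjusted p = 0.049) higher besides. Vldlr also passed without scaling factors and without the low-count filter. By sign 19 were higher and 4 lower (median 0.085), against 50.8% higher over all genes. An unadjusted p under 0.05 with edgeR was reached by 9 upward and 2 downward, against 5.95% and 5.84% of all genes. The list was chosen with earlier results of these data known, so its shares beside those of all genes are a description only. Ndrg1 was at 171, 177 and 180 CPM in BCAA replicates 1 to 3, against 133, 139.6 and 128 CPM in vehicle replicates 1 to 3 (log2 fold change 0.40, SE 0.07, edgeR's adjusted p = 0.018). Its call was lost when any library other than vehicle replicate 1 was left out, and with the replicate block, with adjusted p from 0.060 to 0.17. Without vehicle replicate 1, 8 of the 23 were called higher, Hif1a, Vldlr and Hk2 among them, in a fit that called 1.73% of all genes higher. Hif1a, the oxygen-regulated subunit, averaged 804 ± 31.2 CPM in BCAA libraries and 681 ± 36.8 CPM in vehicle libraries (SD, n = 3 each; log2 fold change 0.24, SE 0.06, edgeR's adjusted p = 0.14). Vldlr, a lipoprotein receptor gene, had a log2 fold change of 0.35 (SE 0.07), and the hexokinase gene Hk2 had 0.28 (SE 0.08). Beside these, Vegfa had 0.15 and Angptl4 -0.061. Adm, adrenomedullin, another secreted vascular target named here after its values were seen, had -0.24 (SE 0.07).

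PPAR and glucocorticoid receptor target genes gave no call among 16 tested of 20 listed with edgeR, with 11 higher and 5 lower by sign (median 0.13). An unadjusted p under 0.05 was reached by 5 of them, all upward, against 5.95% of all genes upward. DESeq2 and the fit without the low-count filter each called 1 gene, Plin2, higher (adjusted p = 0.0050 and 0.024). Plin2, the lipid droplet coat protein gene, averaged 1068 ± 36.9 CPM in BCAA libraries and 880.1 ± 34.2 CPM in vehicle libraries (SD, n = 3 each; log2 fold change 0.28, SE 0.06, edgeR's adjusted p = 0.071). Pdk4, the pyruvate dehydrogenase kinase gene, averaged 3.35 ± 0.941 CPM in BCAA libraries and 1.82 ± 0.497 CPM in vehicle libraries (SD, n = 3 each), with overlapping groups, and Tsc22d3 had a log2 fold change of 0.26 (SE 0.09). Angptl4, itself a PPAR target, had -0.061 beside these. Without vehicle replicate 1, Plin2 and 1 other of the list were called higher, in the fit that called 1.73% of all genes higher. Feedback genes of receptor tyrosine kinases gave no call with edgeR (13 tested of 14 listed) or DESeq2 (14 fitted). With edgeR 10 were higher and 3 lower (median 0.16), against 50.8% higher over all genes. An unadjusted p under 0.05 was reached by 3 upward and 1 downward, against 5.95% and 5.84% of all genes. Egr1, an immediate early transcription factor, averaged 301 ± 4.73 CPM in BCAA libraries and 260.4 ± 4.31 CPM in vehicle libraries (SD, n = 3 each; log2 fold change 0.21, SE 0.06, edgeR's adjusted p = 0.16). Dusp6, the ERK phosphatase, had a log2 fold change of 0.16 (SE 0.06) and Spred2, an inhibitor of Ras signalling, one of 0.29 (SE 0.12). Without vehicle replicate 1, 1 feedback gene was called higher and 1 lower, against 1.73% and 2.2% of all genes. These lists too were chosen with earlier results of these data known, so their shares beside those of all genes are a description only.

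Other secreted paracrine factors were tested for 28 of 31 listed. Ctgf and Cyr61, matricellular growth regulators, fell and 26 did not pass with edgeR, with 10 higher and 18 lower by sign (median -0.13). An unadjusted p under 0.05 with edgeR was reached by 3 upward and 12 downward, against 5.95% and 5.84% of all genes. This list too was chosen with earlier results of these data known, so its shares beside those of all genes are a description only. DESeq2 called 5 lower and 1 higher, and the fit without the low-count filter 4 lower and 1 higher, with Cxcl12, Tnfaip6 and Stc1 called in each. Ctgf had a log2 fold change of -0.72 (SE 0.06), more than the size of any of the 10 factors' fold changes, and stayed past the threshold under all 11 alternatives (edgeR's adjusted p = 0.00014 with all libraries). Cyr61 had -0.46 (SE 0.06, adjusted p = 0.0059) and lost its call without BCAA replicate 1 or 2 and with the replicate block. The chemokine gene Cxcl12 had -0.29 (SE 0.06, adjusted p = 0.066), Tnfaip6 -0.29 (SE 0.06, adjusted p = 0.071) and Stc1, stanniocalcin 1, 0.39 (SE 0.09, adjusted p = 0.089). For Cxcl12 and Tnfaip6 the BCAA libraries lay below the vehicle libraries, and for Stc1 above them. Without vehicle replicate 1, 8 genes of this list were called lower and 1 higher, these 3 among them, against 2.2% of all genes lower and 1.73% higher.

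**Figure D4:**
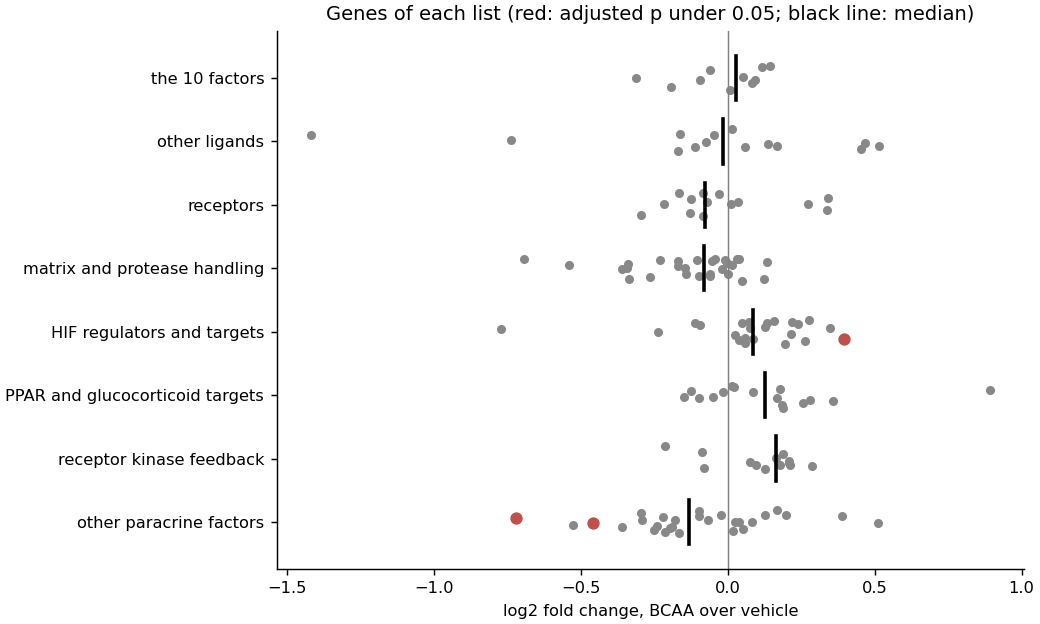
Log2 fold change of BCAA over vehicle for each tested gene of the 10 factors and of 7 related lists. Red points passed an adjusted p of 0.05 (Ndrg1, Ctgf and Cyr61) and black lines are medians, which lie between -0.13 and 0.16.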

How the data were processed

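RNA was isolated with TRIzol and libraries were made with a NEBNext Ultra kit, per the labels' protocols. The authors deposited raw read counts per gene symbol, not normalized or pooled; Trimmomatic, FastQC, STAR, HTSeq and rn6 appear in the submitters' processing notes, and versions, annotation and strand setting are not stated in the sources, so overlapping or antisense genes cannot be told apart. Genes were tested with edgeR 4.0.16 in R 4.3.3 (quasi-likelihood test, robust, TMM, filterByExpr with minimum count 10 and total 15), group as the only term, with Benjamini-Hochberg adjustment over 12298 genes and a threshold of 0.05. The SE is the size of the log2 fold change divided by the square root of F, and 95% intervals are unadjusted. The fits were tested on simulated data. DESeq2 1.42.0, other scalings, no filter, the replicate block and leaving out each library were the alternatives. Chi-square per degree of freedom between libraries was 2.65 to 18.1, so none was a second copy. The 10 members and the 7 related lists were chosen with earlier results of these data known. Named genes are the members, list genes that passed, and up to 3 further per list with the smallest p and a mean of at least 1 CPM. Promoters come from RefSeq (GRCr8), not from rn6. Levels of different genes were not compared, since lengths were not used.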

Additional observations from a re-analysis of the deposited data

How the results depend on the processing

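With DESeq2, 144 genes were called over all genes and 12 genes of the related lists, against 28 and 3 with the fit used. Without the low-count filter these counts were 124 and 9, and with the replicate block 6 and 1. Leaving out each library in turn gave 7 to 491 genes over all, 1 to 26 genes of the related lists and 0 to 1 of the 10 factors, the high ends each without vehicle replicate 1, and the cause was not tested. The sign of Hgf (0.0074) turned to -0.064 without BCAA replicate 1, -0.021 without vehicle replicate 2 and -0.035 without vehicle replicate 3, within a leave-one-out range of -0.064 to 0.079. Fgf2 (-0.092) turned to 0.044 without BCAA replicate 3 and 0.0027 without vehicle replicate 2, within a range of -0.19 to 0.044. The median over the 10 factors (0.030) ran from -0.0077 to 0.084. The other 8 factors kept their sign under all 11 alternatives. In the labels, libraries of equal replicate number share only that number. Their deviations from the group means correlated at -0.066, 0.11 and -0.15 for numbers 1 to 3, and those of libraries of unequal number at -0.083 to 0.15. With 3 libraries a group these values cannot settle whether the libraries were paired. The main fit did not take them as pairs. Total counts of libraries of equal number were close, at 14482260 with BCAA and 14484051 with vehicle for number 1. For number 2 they were 15654060 and 15739731, and for number 3 12802663 and 12725344. The labels name no batch, and a shared one was not tested. With the replicate block Angpt1 had a log2 fold change of -0.31 (adjusted p = 0.27), and none of the 10 was called. Scaling moved the median of all genes by no more than 0.033. With 3 libraries a group, an exact permutation test could not give a p under 0.1.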

Other observations

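Some secreted factor genes outside the list of 10, chosen after their values were seen, had low counts and groups that did not overlap, which 9.29% of all genes showed with BCAA above and 8.76% with BCAA below. None passed the threshold with edgeR. Fgf18, a ligand of skeletal and lung development, averaged 0.544 ± 0.208 CPM in BCAA libraries and 1.44 ± 0.289 CPM in vehicle libraries (SD, n = 3 each; log2 fold change -1.42, SE 0.41, edgeR's adjusted p = 0.17). Igf1, the insulin-like growth factor, averaged 5.17 ± 0.212 CPM in BCAA libraries and 7.45 ± 0.263 CPM in vehicle libraries (SD, n = 3 each; adjusted p = 0.18). In the other direction, Stc2, a secreted glycoprotein, averaged 14.0 ± 0.242 CPM in BCAA libraries and 9.81 ± 1.31 CPM in vehicle libraries (SD, n = 3 each; adjusted p = 0.14). Fgf23, the phosphate-regulating hormone gene, averaged 0.942 ± 0.134 CPM in BCAA libraries and 0.673 ± 0.176 CPM in vehicle libraries (SD, n = 3 each; adjusted p = 0.69).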
